A study of Homo sapiens with 12 samples.

Results

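The mitochondrial genome is a small circular DNA that human cells carry in many copies, and its transcripts were followed here in RNA-seq libraries of 2 acute myeloid leukaemia lines. The members were all gene rows whose symbol begins with MT-, which gave 37 of 60648 rows: 13 mRNAs, 2 rRNAs and 22 tRNAs. MOLM13 and OCIAML5 are established lines from acute myeloid leukaemia. Each group held 2 libraries, made with a stranded mRNA kit from total RNA, and all 12 libraries came from cells infected with lentivirus and then selected with puromycin or sorted for GFP. In the first experiment MOLM13 and OCIAML5 cells received a control hairpin or a hairpin against PSPC1, a paraspeckle protein that binds RNA. In the second experiment OCIAML5 cells received a control hairpin or a hairpin against PU.1, the myeloid transcription factor encoded by SPI1. MOLM13 grew in RPMI with 10% serum and OCIAML5 in alpha-MEM with 20% serum and GM-CSF, so the line and its medium cannot be told apart. Separate cultures are not named for the 2 libraries of a group, so the p-values below rest on the spread between libraries within groups, which may be technical. The test estimated this spread over the groups fitted together and borrowed information across all genes tested.

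Transcription of this genome runs from promoters in the control region over nearly the whole length of each strand, and the long precursors are cut apart, largely at the tRNAs that lie between the other genes. Complexes I, III, IV and V of oxidative phosphorylation each contain subunits from this genome beside many subunits encoded in the nucleus, and the 2 rRNAs build the mitochondrial ribosome. The steady level of each RNA then depends on cutting, polyadenylation and decay, and acute myeloid leukaemia cells are known for their use of oxidative phosphorylation. Mitochondrial mRNAs carry short poly(A) tails, rRNAs very short ones and mature tRNAs none, so a kit for mRNA sees the 3 classes with unequal yield.

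Sequence ends show why polyadenylation matters for these mRNAs. By the GENCODE transcripts of build GRCh38, 6 of the 13 mRNAs end 1 or 2 bases after the last full codon, so that their stop codon exists only once the tail is added, and 7 end with a full codon. The last 30 bases of 6 mRNAs on which the results below turn are printed from 5′ to 3′, with the final bases past the last sense codon in capitals.
MT-CO1: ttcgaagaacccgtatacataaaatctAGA
MT-ND5: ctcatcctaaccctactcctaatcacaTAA
MT-ND2: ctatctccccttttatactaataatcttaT
MT-CO3: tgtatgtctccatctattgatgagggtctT
MT-ND3: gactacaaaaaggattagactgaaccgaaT
MT-CYB: taattgaaaacaaaatactcaaatgggccT
MT-CO1 and MT-ND5 carry their own final codon, whereas MT-ND2, MT-CO3, MT-ND3 and MT-CYB stop at a single T. Among the tRNAs, 1 light-strand gene held nearly all counts, the proline tRNA MT-TP, followed by the cysteine tRNA MT-TC. The glutamate tRNA MT-TE, also on the light strand, had almost none. Their gene sequences are shown with the anticodon in capitals.
MT-TP: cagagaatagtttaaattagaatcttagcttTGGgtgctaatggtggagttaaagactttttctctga
MT-TC: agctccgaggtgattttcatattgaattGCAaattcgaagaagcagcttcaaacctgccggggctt
MT-TE: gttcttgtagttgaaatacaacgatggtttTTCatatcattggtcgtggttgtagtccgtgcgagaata

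On build GRCh38 the ribosomal genes lie first on the chromosome, MT-RNR1 (12S rRNA) at chrM:648-1601 and MT-RNR2 (16S rRNA) at chrM:1671-3229. MT-ND1 at chrM:3307-4262, MT-ND2 at chrM:4470-5511 and MT-CO1 at chrM:5904-7445 follow, all on the plus strand. MT-CO3 (chrM:9207-9990), MT-ND3 (chrM:10059-10404), MT-ND5 (chrM:12337-14148) and MT-CYB (chrM:14747-15887) lie further on. MT-ND6 (chrM:14149-14673) is the single mRNA of the minus strand, and MT-TP (chrM:15956-16023) lies on that strand next to the control region. None of these genes has introns. MT-ATP8 and MT-ATP6 share 46 bases and MT-ND4L and MT-ND4 share 7. The sources used here do not give how HTSeq was set to treat such overlaps or the strand, so the counts of MT-ND6 and of the minus-strand tRNAs may include reads from the opposite strand.

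Libraries held 15372383 to 39716519 counts. Levels are given as CPM, counts per 1000000 counts of a library, scaled within each experiment by the trimmed mean of M values (TMM). The leukocyte marker PTPRC (248 to 682 CPM) and the myeloid genes CD33 (74.5 to 132), CSF3R (41.4 to 232) and LYZ (18.1 to 349) were present in all 12 libraries. The myeloid gene MPO was at 35.4 and 37.7 CPM in MOLM13 controls and at 0.209 and 1.0 CPM in OCIAML5 after PSPC1 knockdown, so it marked some of the groups only weakly. In the same libraries CD3E, EPCAM, ALB and COL1A1 of other cell types stayed at or under 0.657 CPM. The targeted genes followed the labels: PSPC1 had a log2 fold change of -2.27 in MOLM13 and -2.38 in OCIAML5 after its own knockdown, and SPI1 of -2.20 after PU.1 knockdown. In the PU.1 experiment PSPC1 itself was at 106 and 113 CPM in control libraries and 59.8 and 58.2 CPM after PU.1 knockdown (log2 fold change -0.89 ± 0.055, adjusted p = 2.1e-23).

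The 13 mRNAs together made up between 7.33% and 11.3% of all gene counts of a library. In MOLM13 their share was 7.33% and 7.74% in the controls and 9.51% and 9.53% after PSPC1 knockdown. In OCIAML5 it was 9.45% and 8.29% in the controls of the PSPC1 experiment and 11.2% and 11.3% after PSPC1 knockdown. The groups did not overlap in either line: the shares after knockdown were higher by 1.99 percentage points (combined SD 0.294) in MOLM13 and by 2.36 (0.818) in OCIAML5. In the PU.1 experiment the share was 7.90% and 7.90% in the controls and 8.60% and 7.89% after PU.1 knockdown, a difference of 0.346 percentage points (combined SD 0.503) that lay within the spread between replicates. Shares were set beside their spread and not tested, since an exact two-sided permutation test of 2 libraries against 2 gives no p under 0.333. Counting error was small beside these differences: the Wilson 95% interval of a library's share reached at most 0.015 percentage points to either side. In bulk RNA a change in the mix of cells and a change in RNA per cell cannot be told apart. The 2 responses to PSPC1 knockdown differed between the lines by -0.376 percentage points (combined SD 0.869), within the spread, and the MOLM13 controls differed from those of OCIAML5 by -1.33 points, more than the combined SD of 0.868. That line difference was -0.757 points without OCIAML5 control replicate 1, within the same SD, and -1.91 without control replicate 2.

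**Figure D1:**
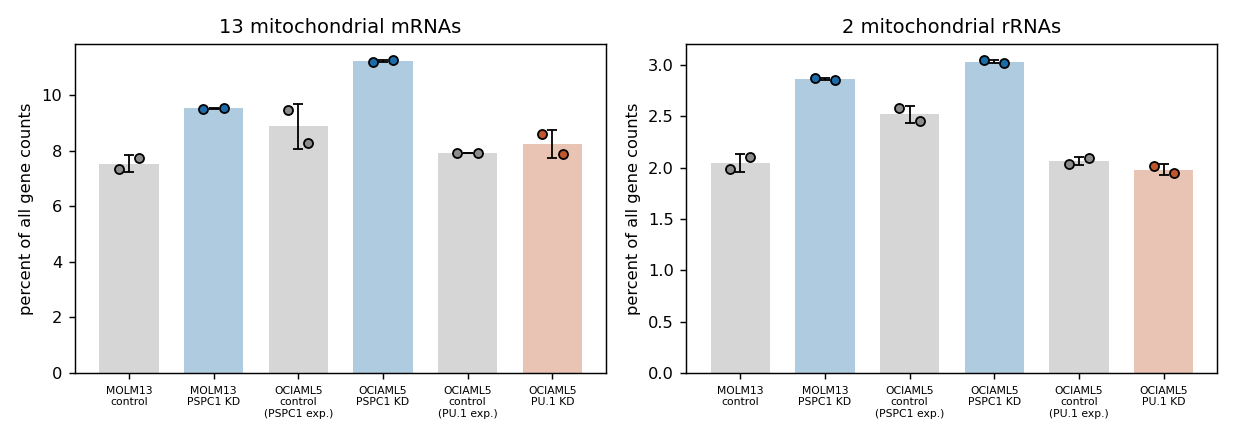
Share of all gene counts, in percent, taken by the 13 mitochondrial mRNAs (left) and the 2 mitochondrial rRNAs (right) in each of the 6 groups. Points are single libraries, bars are group means and error bars are the SD (n = 2). Both shares are higher after PSPC1 knockdown in both lines, and the PU.1 groups lie close together.

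The rRNA share was 1.99% and 2.11% in MOLM13 controls and 2.87% and 2.86% after PSPC1 knockdown. In OCIAML5 it was 2.58% and 2.46% in the controls and 3.05% and 3.02% after PSPC1 knockdown, and 2.04% and 2.09% in the controls and 2.02% and 1.94% after PU.1 knockdown. The rRNA share was thus higher in both PSPC1 knockdown groups, without overlap between groups, and the PU.1 groups did not overlap either, by a small margin. The tRNA share stayed between 0.00502% and 0.0111% of a library. RNAs without a poly(A) tail, a list of 12 nuclear genes kept here as a gauge of how strictly a library selected tailed RNA, summed to 27.5 and 26.3 CPM in MOLM13 controls and 39.7 and 43.4 CPM after PSPC1 knockdown. In OCIAML5 the same sum was 2.77 and 2.66 CPM in the controls against 4.59 and 6.50 CPM after PSPC1 knockdown, and 8.65 and 5.17 CPM in the controls against 5.51 and 5.19 CPM after PU.1 knockdown. This gauge was therefore higher in the same 2 knockdown groups as the mitochondrial shares. Of the 3 genes of the list that could be tested, 1 rose in MOLM13, 3 rose in OCIAML5 after PSPC1 knockdown and none was called after PU.1 knockdown. Without OCIAML5 knockdown replicate 2 none of the 3 was called in OCIAML5, without control replicate 1 there was 1 call and without control replicate 2 there were 2. Without MOLM13 control replicate 1 there were 2 calls in MOLM13. Most of the 12 were at or near 0, and their part in the mitochondrial result was not tested.

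Levels per length were compared as CPM per kilobase. MT-CO1, the largest subunit of complex IV (cytochrome c oxidase), MT-CO3 of the same complex and MT-RNR2 were the 3 highest of the 15 mRNAs and rRNAs in all 3 control groups. In MOLM13 controls MT-CO1 stood at 11762 and 12216 CPM per kilobase, MT-RNR2 at 11051 and 11774 and MT-CO3 at 11020.3 and 11737, and these 3 did not separate beyond their spread. MT-RNR1 stood at 3579 and 3888, well under MT-RNR2, although both rRNAs lie side by side on the same precursor. At the low end were MT-ND6 at 2708 and 2936 and MT-ND3 at 2479 and 2623, both subunits of complex I (NADH dehydrogenase). Human MT-ND6 mRNA is described as lacking a poly(A) tail. OCIAML5 controls of the PSPC1 experiment had MT-CO3 at 15542 and 14026 and MT-ND6 at 2702 and 2361 CPM per kilobase.

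**Figure D2:**
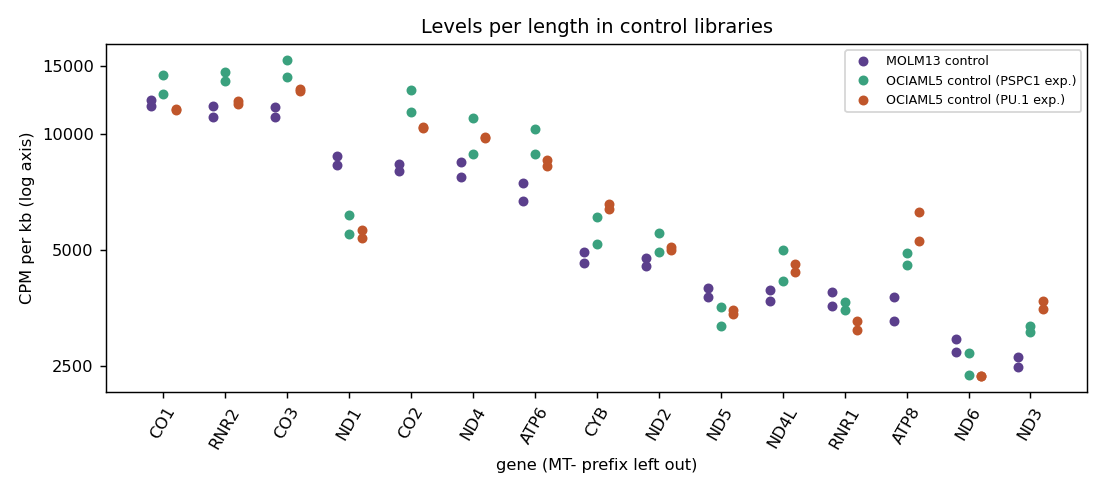
Level per length (CPM per kilobase, log axis) of the 13 mRNAs and 2 rRNAs in the control libraries of MOLM13 and of both OCIAML5 experiments. Each point is 1 library, and genes are ordered by their mean in MOLM13. The PU.1 experiment was scaled separately from the PSPC1 experiment, so its points show the order of genes and not a difference in level.

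By complex, the 7 complex I mRNAs and the 3 complex IV mRNAs took most of the mitochondrial mRNA counts. Complex I held 43.9% and 44.2% of them in MOLM13 controls and 42.9% and 43.0% after PSPC1 knockdown, while complex IV held 42.3% and 41.6% in the controls against 43.7% and 43.7% after knockdown. In OCIAML5, PSPC1 knockdown went with a complex IV part of 50.1% and 50.1% against 45.2% and 46.2% in the controls. The complex I part was 37.1% and 37.3% against 39.1% and 38.3%. After PU.1 knockdown complex IV held 44.4% and 45.3% against 42.1% and 42.0%, and complex I 40.3% and 39.7% against 40.9% and 40.7%. Complex IV thus took a larger part after knockdown in all 3 comparisons, without overlap between groups. Among its mRNAs only MT-CO1 took a larger part in all 3. MT-CO1 alone accounted for 26.6% and 26.5% after PSPC1 knockdown in MOLM13 against 23.8% and 23.2% in the controls. In OCIAML5 it accounted for 28.0% and 27.8% after PSPC1 knockdown against 23.1% and 23.6%, and for 25.6% and 26.0% after PU.1 knockdown against 21.4% and 21.3%. MT-CYB, the complex III subunit, took 7.27% and 7.11% in OCIAML5 controls and 5.61% and 5.69% after PSPC1 knockdown, while the complex V pair took 8.44% and 8.39% in the controls against 7.13% and 6.91% after knockdown.

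PSPC1 knockdown in MOLM13 was followed by a rise of nearly all measured mitochondrial RNAs. Of the 17 members that passed the filter on low counts, 15 rose, none fell and 2 were not called, where a call is an adjusted p under 0.05 in edgeR's quasi-likelihood test over all 16457 genes tested. That test called 57.0% of all genes, 27.6% higher and 29.5% lower. The 17 members had a median log2 fold change of 0.28, against 0.01 over all genes. The other 20 members are tRNAs with too few counts to test.

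Both rRNAs rose in MOLM13. MT-RNR2 was at 17229 and 18355 CPM in control libraries and 24432 and 24371 CPM after PSPC1 knockdown (log2 fold change 0.46 ± 0.034, SE, adjusted p = 1.1e-16). MT-RNR1 was at 3414 and 3709 CPM and 4685 and 4365 CPM (0.35 ± 0.039, adjusted p = 6.3e-11). For both genes each knockdown library lay above each control library. Among the mRNAs, MT-CO1 rose most, from 18136 and 18837 CPM to 25587 and 25373 CPM (0.46 ± 0.036, adjusted p = 6.2e-16). All 7 complex I mRNAs rose: MT-ND6 by 0.37, MT-ND5 by 0.36, MT-ND3 by 0.28, MT-ND1 by 0.24, MT-ND4 by 0.21, MT-ND2 by 0.19 and MT-ND4L by 0.17 on the log2 scale. MT-ND6 comes from the other strand than the remaining 6, and its rise was close to that of MT-ND5 beside it. MT-CYB rose by 0.33, and the other complex IV mRNAs MT-CO2 and MT-CO3 rose by 0.25 and 0.15. The smallest changes were those of complex V (ATP synthase), with MT-ATP6 at 0.13 ± 0.044 (adjusted p = 0.012) and MT-ATP8 at 0.034 ± 0.046 (adjusted p = 0.55). Leaving out control replicate 1 ended the calls of MT-ATP6 (0.039), MT-CO3 (0.10) and MT-ND4L (0.11), leaving out knockdown replicate 1 ended those of MT-ATP6 (0.11) and MT-ND4L (0.12), and leaving out control replicate 2 brought MT-ATP8 to a call (0.13, adjusted p = 0.033). MT-ND4 was still called at 0.13 without control replicate 1, and MT-ATP6 at 0.20 without control replicate 2. DESeq2 did not call MT-ATP6, MT-ND4 or MT-ND4L.

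The rise of the mRNAs in MOLM13 was uneven, from 0.034 for MT-ATP8 to 0.46 for MT-CO1 on the TMM scale. Each library was then scaled to its own total of the 13 mitochondrial mRNAs, a scale chosen after seeing the data. Each mRNA is part of this total, so a larger part for 1 mRNA leaves a smaller part for the others. Nuclear genes shift with this scale as well, and the median of all genes on it was -0.24. The SE of MT-CO1 was 0.078 on that scale and 0.036 on the TMM scale, so a missing call does not show an even rise. On the mitochondrial scale 1 member was called, against 53.3% of all genes (39.3% lower): MT-ATP8 was lower, at -0.26 ± 0.088 relative to the mitochondrial mRNA total (adjusted p = 0.0084). On the TMM scale its 2 control libraries, at 675 and 779.7 CPM, and its 2 knockdown libraries, at 727 and 761 CPM, overlapped. As a part of the mitochondrial mRNA counts the groups did not overlap, at 0.886% and 0.962% in the controls and 0.754% and 0.794% after knockdown. The call was lost without control replicate 2 or without either knockdown library.

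PSPC1 knockdown in OCIAML5 gave a rise of most members and a fall of 3. Of the 17 members tested, 11 rose and 3 fell, with 56.0% of all genes called, 27.5% higher and 28.4% lower. MT-RNR1, MT-ND2 and MT-ND3 fell, while MT-RNR2, MT-ND1, MT-ND4, MT-ND4L, MT-ND5, MT-ND6, all 3 complex IV mRNAs and 2 tRNAs rose. The median log2 fold change of the members was 0.24, against 0.02 over all genes. The 2 control libraries differed in their mRNA share (9.45% and 8.29%), more than any other pair, so single values moved with the choice of control: 9 members rose and 5 fell without control replicate 2, and 12 rose and 3 fell without control replicate 1.

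The ribosomal pair moved apart in OCIAML5 after PSPC1 knockdown. MT-RNR1 was at 3481 and 3327 CPM in control libraries and 2866 and 2817 CPM after knockdown (-0.26 ± 0.039, adjusted p = 9.1e-08). MT-RNR2 was at 22512 and 21301 CPM and 26033 and 25902 CPM (0.25 ± 0.034, adjusted p = 1.5e-08). In neither case did the groups overlap. The complex I mRNAs also split. MT-ND1, the first mRNA after the rRNAs, rose from 5874 and 5231 CPM to 6639 and 6809 CPM (0.28 ± 0.038, adjusted p = 2.1e-08). Its neighbour MT-ND2 fell from 5758 and 5144 CPM to 4589 and 4564 CPM (-0.25 ± 0.038, adjusted p = 1.6e-07). MT-ND3 fell from 1094 and 1058 CPM to 826 and 883 CPM (-0.33 ± 0.04, adjusted p = 4.3e-10). MT-ND2 and MT-ND3 were the mRNAs that fell, and both end at the single T shown above, as do MT-CO3 and MT-ND4, which rose. Of the rest of complex I, MT-ND5 rose by 0.44, MT-ND6 by 0.44, MT-ND4 by 0.22 and MT-ND4L by 0.17. MT-ND4 stood at 0.38 without control replicate 1 and 0.064 without control replicate 2, and MT-ND4L at 0.31 and 0.032, the last not called.

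MT-CO1 again rose most among the mRNAs, from 21948 and 19584 CPM to 29794 and 29802 CPM (0.52 ± 0.036, adjusted p = 9.9e-18). MT-CO2 rose by 0.26 and MT-CO3 by 0.24, or by 0.15 and 0.16 without control replicate 2. The 3 mRNAs not called were MT-CYB at -0.089 ± 0.042 (adjusted p = 0.07), MT-ATP6 at -0.0039 ± 0.044 and MT-ATP8 at 0.01 ± 0.045. Their groups overlapped. MT-ATP6 depended on the control library, at 0.11 without control replicate 1 and -0.12 without control replicate 2, both called and in opposite directions. Without control replicate 2 MT-CYB was called lower (-0.21), and without knockdown replicate 2 MT-CYB was called lower (-0.11). MT-CYB was also called lower when scaling used nuclear genes alone (-0.10) or no filter on low counts (-0.093), and DESeq2 did not call MT-ND4 or MT-ND4L.

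**Figure D3:**
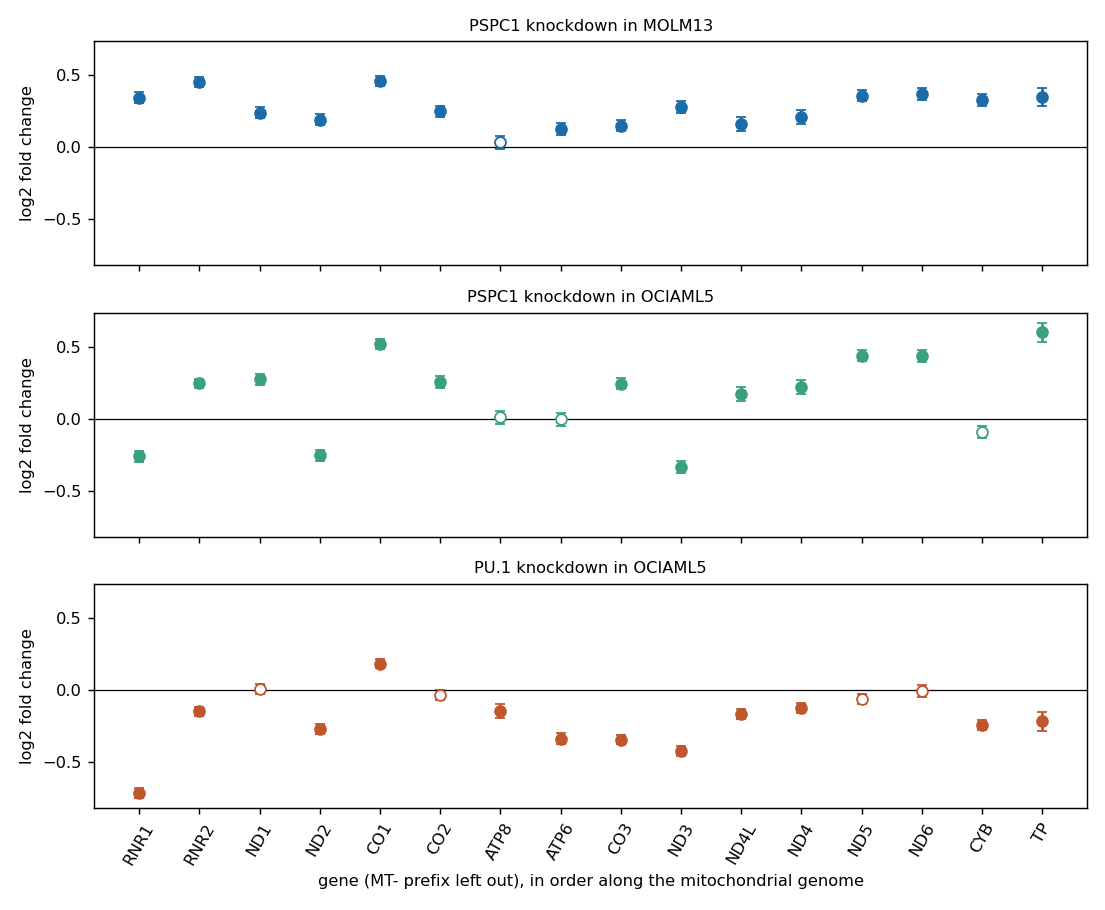
Log2 fold change of the 13 mRNAs, 2 rRNAs and MT-TP after each of the 3 knockdowns, with genes in their order along the mitochondrial genome (equal spacing, not to scale). Error bars are the SE, and filled points passed an adjusted p under 0.05. All points lie above 0 in MOLM13, while RNR1, ND2 and ND3 lie below 0 and are called in both OCIAML5 panels. CYB and ATP6 also lie below 0 in both, but are called after PU.1 knockdown only.

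Scaled to the mitochondrial mRNA total, 9 of the 17 members differed in OCIAML5 after PSPC1 knockdown, close to the 52.5% of all genes (14.8% higher and 37.8% lower). The median of all genes was -0.22 on this scale, and each mRNA is part of the total it is set against. MT-CO1 (0.26 ± 0.078), MT-TP (0.34 ± 0.11) and MT-TC (0.74 ± 0.31) were higher. MT-ND3 (-0.60 ± 0.088, adjusted p = 6.1e-11), MT-RNR1 (-0.52 ± 0.084, adjusted p = 2.4e-09), MT-ND2 (-0.51 ± 0.083, adjusted p = 3.5e-09) and MT-CYB (-0.35 ± 0.082, adjusted p = 8.1e-05) were lower, as were MT-ATP6 (-0.26 ± 0.082) and MT-ATP8 (-0.25 ± 0.088). The calls of MT-ND3, MT-RNR1, MT-ND2 and MT-CYB held without each of the 4 OCIAML5 libraries in turn. The other 5 calls were each lost without at least 1 library: MT-CO1 and MT-ATP8 without knockdown replicate 1, MT-ATP6, MT-ATP8 and MT-TP without knockdown replicate 2, and MT-TC without either knockdown library or control replicate 2.

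Between the lines, the response to PSPC1 knockdown differed for 6 of the 17 members by the interaction test. This part was close to the 30.5% of all genes (12.5% higher and 18.0% lower). The response was higher in MOLM13 for MT-ND3 (0.61 ± 0.056, adjusted p = 1.2e-12), MT-RNR1 (0.61 ± 0.055, adjusted p = 6.7e-13), MT-ND2 (0.44 ± 0.054, adjusted p = 3.8e-09), MT-CYB (0.42 ± 0.06, adjusted p = 1.9e-07) and MT-RNR2 (0.21 ± 0.048, adjusted p = 0.00042). These 5 calls held under every alternative tried on this scale. MT-TP showed the opposite sign (-0.25 ± 0.09, adjusted p = 0.029). Its call held with total counts as the scale but ended under DESeq2 (-0.22) and under some other scalings. It also ended with the loss of 1 of 4 libraries: MOLM13 control replicate 1 (-0.24), MOLM13 knockdown replicate 1 (-0.19), OCIAML5 control replicate 1 (-0.24) or OCIAML5 knockdown replicate 2 (-0.23). For MT-CO1, at 0.46 in MOLM13 and 0.52 in OCIAML5, no difference was called (-0.058 ± 0.051, adjusted p = 0.44). The other 10 members were not called either, from -0.36 for MT-TC to 0.13 for MT-ATP6. The number of calls rose to 13 without OCIAML5 control replicate 1 and to 10 without OCIAML5 control replicate 2. Relative to the mitochondrial mRNA total 4 of the 17 members differed between the lines, close to the 21.5% of all genes (8.16% higher and 13.4% lower). These were MT-ND3 (0.59 ± 0.12), MT-RNR1 (0.58 ± 0.12), MT-ND2 (0.41 ± 0.12) and MT-CYB (0.38 ± 0.12). Of these, MT-ND2 lost its call without knockdown replicate 2 of either line and MT-CYB without any 1 of the 4 knockdown libraries.

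PU.1 knockdown in OCIAML5 left the mitochondrial share of the library near that of its controls, while 1 member rose and 11 of the 18 members tested fell. The test called 60.4% of all 16861 genes, 29.6% higher and 30.9% lower. The median log2 fold change of the members was -0.15, against 0.02 over all genes. MT-CO1 rose, and both rRNAs, MT-ND2, MT-ND3, MT-ND4, MT-ND4L, MT-CYB, MT-CO3, both complex V mRNAs and MT-TP fell. The direction of the smaller changes depended on the scaling. With total counts as the scale in place of TMM, the median of all genes moved from 0.02 to 0.17 and 62.2% of all calls were higher in place of 48.9%, and 5 members rose and 6 fell. MT-RNR1, MT-ND3, MT-CO3, MT-ATP6, MT-ND2 and MT-CYB were called lower and MT-CO1 higher on both scales.

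MT-RNR1 had the largest change of the mitochondrial mRNAs and rRNAs in any of the 3 knockdowns. It was at 2955 and 3104 CPM in control libraries and 1857 and 1844 CPM after PU.1 knockdown (-0.71 ± 0.035, adjusted p = 1.4e-28). MT-RNR2 was at 18614 and 18895 CPM and 17392 and 16547 CPM (-0.14 ± 0.031, adjusted p = 4.6e-05), and stood at 0.0071 and was not called when total counts set the scale. Among complex I mRNAs MT-ND3 fell most, from 1270.4 and 1211 CPM to 936 and 916 CPM (-0.42 ± 0.036, adjusted p = 1.7e-16). MT-ND2 fell from 5283 and 5184 CPM to 4597 and 4087 CPM (-0.27 ± 0.036, adjusted p = 1.0e-09). No group overlapped for these 4 genes. MT-ND4L fell by 0.17 and MT-ND4 by 0.12, while MT-ND1 (0.012), MT-ND5 (-0.062) and MT-ND6 (-0.0069) were not called.

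The complex IV mRNAs went in different directions after PU.1 knockdown. MT-CO1 was at 17849 and 17739 CPM in control libraries and 20979.5 and 19422 CPM after knockdown (0.18 ± 0.032, adjusted p = 8.5e-07), and its log2 fold change was 0.12 without knockdown replicate 1. MT-CO3 was at 10216 and 10108 CPM and 8257 and 7760.3 CPM (-0.34 ± 0.033, adjusted p = 6.9e-15). MT-CO2, which lies between them, was not called (-0.034 ± 0.033, adjusted p = 0.39). MT-ATP6 fell from 5623 and 5821 CPM to 4830.2 and 4243 CPM (-0.34 ± 0.037, adjusted p = 1.7e-12), and MT-CYB fell by 0.24. MT-ATP8 was called lower (-0.14 ± 0.046, adjusted p = 0.0054) although its groups overlapped. It stood at -0.28 without control replicate 1 and -0.27 without knockdown replicate 1, and lost its call without control replicate 2 (-0.031), without knockdown replicate 2 (-0.044) or under DESeq2. MT-ND4 also lost its call without knockdown replicate 2 (-0.047) or under DESeq2, and stood at -0.22 without knockdown replicate 1. Without knockdown replicate 1 MT-CO2 (-0.10), MT-ND5 (-0.16) and MT-ND6 (-0.13) were called lower, as was MT-ND5 without control replicate 1 (-0.10).

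Relative to the mitochondrial mRNA total, 5 members differed after PU.1 knockdown, against 53.7% of all genes (31.1% higher and 22.5% lower): MT-CO1 was higher (0.27 ± 0.086), and MT-RNR1 (-0.62 ± 0.089, adjusted p = 3.2e-11), MT-ND3 (-0.33 ± 0.09), MT-CO3 (-0.25 ± 0.087) and MT-ATP6 (-0.25 ± 0.088) were lower. Without either control library MT-RNR1 was the single member called, and without knockdown replicate 1 or 2 the number was 9 or 10. In a single model of all 8 OCIAML5 libraries the effects of the 2 knockdowns differed for 12 of 18 members, against 45.6% of all genes, and for all 12 the PU.1 value was the lower one. The differences ran from -0.80 ± 0.094 for MT-TP and -0.57 ± 0.054 for MT-CO3 to -0.25 ± 0.06 for MT-ND1. No difference was called for MT-ND2 (-0.0005 ± 0.061, adjusted p = 1) or MT-ND3 (-0.072 ± 0.058, adjusted p = 0.33), which fell in both experiments. MT-RNR1 fell in both as well, and further after PU.1 knockdown (difference -0.43 ± 0.054, adjusted p = 3.0e-09). Relative to the mitochondrial mRNA total 2 differences were called, against 40.4% of all genes (32.4% higher and 7.93% lower), MT-ND2 (0.33 ± 0.13) and MT-TP (-0.46 ± 0.16). Without PSPC1 knockdown replicate 1 or 2, PU.1 knockdown replicate 1 or control replicate 2 of the PU.1 experiment neither was called, and MT-ND2 was also lost without control replicate 1 of that experiment. Each experiment had its own controls, and DESeq2 did not call the differences of MT-ATP6, MT-ND1, MT-ND4 and MT-ND4L. Without control replicate 2 of the PSPC1 experiment the difference was -0.20 for MT-ATP6, -0.18 for MT-CO2, -0.16 for MT-ND1, -0.17 for MT-ND4 and -0.19 for MT-ND4L, and without PU.1 knockdown replicate 2 it was -0.20 for MT-ATP6 and -0.16 for MT-ND1, all still called.

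Ratios of 2 RNAs within a library need no scaling. The 4 ratios below were picked after the values were seen and are a description without a test. The counts of MT-RNR2 per count of MT-RNR1 were 5.05 and 4.95 in MOLM13 controls and 5.22 and 5.58 after PSPC1 knockdown. In OCIAML5 this ratio was 6.47 and 6.40 in the controls of the PSPC1 experiment and 9.08 and 9.19 after PSPC1 knockdown. In the PU.1 experiment it was 6.30 and 6.09 in the controls and 9.37 and 8.98 after knockdown. The OCIAML5 control groups of both experiments thus lay side by side, and both knockdown groups lay above them by more than the gap between replicates. MT-ND1 per MT-ND2 was 1.02 and 1.02 in OCIAML5 controls of the PSPC1 experiment and 1.45 and 1.49 after PSPC1 knockdown. The PU.1 experiment gave 1.02 and 0.989 in the controls and 1.21 and 1.23 after knockdown, and MOLM13 gave 1.68 and 1.69 in the controls and 1.74 and 1.74 after knockdown. The ratio was thus higher in MOLM13 controls than in OCIAML5 controls. MT-CO1 per MT-CO3 was 2.10 and 2.05 in MOLM13 controls and 2.59 and 2.55 after PSPC1 knockdown. In OCIAML5 it was 1.80 and 1.78 in the controls against 2.20 and 2.15 after PSPC1 knockdown, and 1.75 and 1.75 against 2.54 and 2.50 in the PU.1 experiment. This ratio was higher after each of the 3 knockdowns by more than the gap between replicates. MT-ND5 per MT-CYB was 0.931 and 0.974 in OCIAML5 controls against 1.37 and 1.37 after PSPC1 knockdown, and 0.822 and 0.865 in the controls against 0.959 and 0.945 after PU.1 knockdown. In MOLM13 it was 1.30 and 1.28 in the controls against 1.29 and 1.34 after knockdown, where the groups lay close together.

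**Figure D4:**
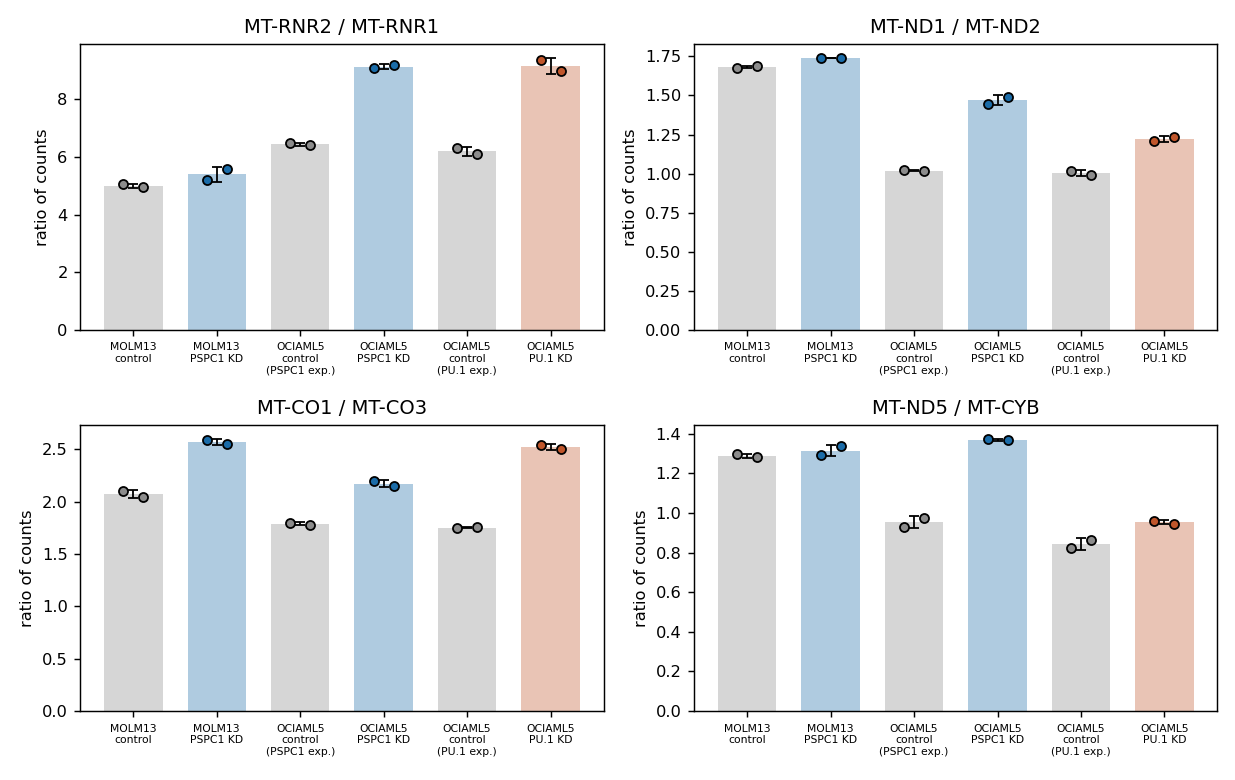
Ratios of counts within each library for 4 pairs of mitochondrial RNAs. Points are libraries, bars group means and error bars the SD (n = 2). RNR2 per RNR1 lies between 8.98 and 9.37 in both OCIAML5 knockdown groups and between 6.09 and 6.47 in both OCIAML5 control groups, and CO1 per CO3 is higher after each knockdown than in its controls.

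The lines differed in their controls too. In MOLM13, 4 of 17 members were higher and 11 lower than in OCIAML5 controls of the same experiment, with 60.6% of all genes called, 30.7% lower and the rest higher. MT-ND1 was at 7903 and 8369 CPM in MOLM13 and 5874 and 5231 CPM in OCIAML5 (0.55 ± 0.038, adjusted p = 9.3e-18). MT-CO2 was at 5466 and 5711 CPM in MOLM13 against 8856 and 7759.5 CPM in OCIAML5 (-0.57 ± 0.039, adjusted p = 4.0e-18). Neither gene overlapped between the lines. MT-TP (0.49), MT-ND5 (0.20) and MT-ND6 (0.16) were also higher in MOLM13. The list of RNAs without a poly(A) tail summed to 27.5 and 26.3 CPM in these MOLM13 libraries and to 2.77 and 2.66 CPM in those of OCIAML5. Its part in the line differences was not tested. MT-ATP6 (-0.44), MT-ATP8 (-0.43), MT-CO3 (-0.38), MT-RNR2 (-0.30), MT-ND4 (-0.30), MT-ND3 (-0.29), MT-ND4L (-0.26), MT-CYB (-0.23), MT-ND2 (-0.17) and MT-CO1 (-0.17) were lower. MT-RNR1 was not called (0.065, adjusted p = 0.14). Without MOLM13 control replicate 1 (0.13) or OCIAML5 control replicate 1 (0.10) MT-RNR1 was called higher, and MT-ND6 lost its call without control replicate 2 of MOLM13 (0.11) or of OCIAML5 (0.061). OCIAML5 control replicate 1 moved other values without ending a call: without it MT-CO1 stood at -0.08, MT-CYB at -0.11, MT-ND2 at -0.087, MT-ND4 at -0.13, MT-ND4L at -0.12 and MT-ND6 at 0.26. Without OCIAML5 control replicate 2 MT-ND4 stood at -0.45 and MT-ND5 at 0.12. Within the mitochondrial mRNA total, the largest line difference was that of MT-ND1 (0.73 ± 0.082, adjusted p = 3.9e-18). On that scale 9 members were called, against 57.4% of all genes (35.9% higher and 21.4% lower). MT-ND1 took 10.4% and 10.3% of the mitochondrial mRNA counts in MOLM13 controls, 6.17% and 6.30% in OCIAML5 controls of the PSPC1 experiment and 6.43% and 6.17% in those of the PU.1 experiment.

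The 22 tRNAs were nearly absent except for MT-TP. Of the 22, 5 had no count in any library, which allows up to 0.0107 CPM over all 12 libraries together, and 18 had under 30 counts in all libraries together. The 8 light-strand tRNAs held 19301 counts and the 14 heavy-strand tRNAs 147. MT-TP alone held at least 94.2% of the tRNA counts in each library. MT-TP was at 80.5 and 79.1 CPM in MOLM13 controls and 97.3 and 106 CPM after PSPC1 knockdown (0.35 ± 0.063, adjusted p = 4.3e-06). In OCIAML5 it was at 56.3 and 57.3 CPM in the controls against 85.0 and 87.2 CPM (0.60 ± 0.065, adjusted p = 2.9e-11). In the PU.1 experiment it was at 51.7 and 56.2 CPM in the controls against 47.1 and 46.0 CPM (-0.21 ± 0.065, adjusted p = 0.0032), a call that ended without control replicate 2 (-0.17) or with total counts as the scale (-0.063). Its groups did not overlap in any of the 3. MT-TP thus rose with both PSPC1 knockdowns, as did MT-ND6, the mRNA of the same strand, but also MT-CO1 and MT-ND5 of the other strand. After PU.1 knockdown MT-ND6 was not called (-0.0069). MT-TP counts amounted to 3.57% to 5.66% of those of MT-ND6. MT-TC, singled out after its values were seen, rose after PSPC1 knockdown in OCIAML5, from 2.61 and 1.90 CPM to 4.34 and 4.72 CPM (0.99 ± 0.29, adjusted p = 0.0033), a call lost without control replicate 2 (0.78). It was not called in MOLM13 (0.63 ± 0.29, adjusted p = 0.056) or after PU.1 knockdown (0.82 ± 0.50, adjusted p = 0.16).

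Nuclear copies of mitochondrial genes can take reads from their parents. The tables listed 408 such rows, of which 108 had any count, and together they held 0.0733% to 0.121% of a library. MTATP6P1 on chromosome 1 (chr1:633696-634376) is identical to MT-ATP6 at 671 of 681 aligned bases and held 15.0% to 16.8% as many counts as MT-ATP6. It was at 934 and 946 CPM in control libraries of the PU.1 experiment and 772 and 704 CPM after PU.1 knockdown (log2 fold change -0.35, adjusted p = 1.8e-12), close to the -0.34 of MT-ATP6. After PSPC1 knockdown it was not called in either line (0.11 and -0.02), and MT-ATP6 is uncertain to that extent. MTCO1P12, a copy of MT-CO1, averaged at most 28.8 CPM in a group and held 0.0916% to 0.118% as many counts as MT-CO1.

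Nuclear genes that serve the mitochondrial genome and its RNA were more often called lower than higher in all 3 knockdowns. Of 16 genes for mitochondrial transcription and DNA replication, 1 rose and 10 fell in MOLM13 (median -0.39), 2 rose and 11 fell in OCIAML5 (median -0.51), and 3 rose and 9 fell after PU.1 knockdown (median -0.21). On the scale of total counts the PU.1 numbers were 3 and 7 (median -0.05), where 62.7% of all genes were called, 39.0% higher and 23.7% lower, with a median of 0.17. TWNK, the replicative helicase, fell after PSPC1 knockdown in MOLM13 (-1.44 ± 0.088) and in OCIAML5 (-1.64 ± 0.089). TFAM, which packages the genome and starts its transcription, was at 64.7 and 65 CPM after knockdown and 118 and 125 CPM in control libraries in MOLM13 (-0.90 ± 0.06, adjusted p = 2.9e-18). TOP1MT, the mitochondrial topoisomerase, fell after PSPC1 knockdown (-1.27 ± 0.046) and after PU.1 knockdown (-0.81 ± 0.041) in OCIAML5. TOP3A, which separates replicated circles, fell after PU.1 knockdown (-0.55 ± 0.056).

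Of 23 genes for mitochondrial RNA processing and decay, 2 rose and 15 fell in MOLM13 (median -0.31), 3 rose and 12 fell in OCIAML5 after PSPC1 knockdown (median -0.20, or 5 and 9 on the scale of total counts, where 57.0% of all genes were called, 31.6% higher and 25.4% lower), and 1 rose and 13 fell after PU.1 knockdown (median -0.28), or 5 and 9 on the scale of total counts (median -0.13). ELAC2, the nuclease that cuts the 3′ ends of tRNAs out of the precursors, was at 37.6 and 38.8 CPM after knockdown and 136 and 137 CPM in control libraries in MOLM13 (-1.84 ± 0.066, adjusted p = 7.0e-29). In OCIAML5 ELAC2 was at 36.3 and 37.3 CPM after knockdown and 108 and 108 CPM in control libraries (-1.55 ± 0.066, adjusted p = 5.9e-26). TRMT10C, a subunit of the mitochondrial RNase P that cuts the 5′ ends, was at 22.4 and 22.2 CPM after knockdown and 52.6 and 55.2 CPM in control libraries in the PU.1 experiment (-1.27 ± 0.073, adjusted p = 5.9e-25). PNPT1, a subunit of the mitochondrial RNA degrading complex, fell after PSPC1 knockdown in OCIAML5 (-0.63 ± 0.063), and PDE12, which removes poly(A) tails, in MOLM13 (-1.12 ± 0.077). TBRG4, a regulator of mitochondrial mRNA stability, fell after PU.1 knockdown (-0.50 ± 0.05).

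Of 21 genes that modify mitochondrial rRNA and tRNA, 1 rose and 13 fell in MOLM13 (median -0.41), and 1 rose and 15 fell both in OCIAML5 after PSPC1 knockdown (median -0.31) and after PU.1 knockdown (median -0.36), the latter 3 and 10 on the scale of total counts (median -0.21). The pseudouridine synthase PUS1 fell after PSPC1 knockdown in MOLM13 (-1.13 ± 0.071) and in OCIAML5 (-1.0 ± 0.072). RPUSD4, a pseudouridine synthase that acts on the 16S rRNA, was at 19.0 and 19.8 CPM after knockdown and 66.4 and 66.0 CPM in control libraries in the PU.1 experiment (-1.77 ± 0.072, adjusted p = 5.4e-33). GTPBP3 and MTO1, which act together on the wobble base of tRNAs, fell in MOLM13 (-1.01 ± 0.11) and in OCIAML5 after PSPC1 knockdown (-0.54 ± 0.067), respectively, and NSUN2, a cytosine methyltransferase of tRNAs, fell after PU.1 knockdown (-0.47 ± 0.046). Of 15 translation factors, 2 were called higher and 6 lower in MOLM13, 1 and 6 in OCIAML5 after PSPC1 knockdown, and 1 and 7 after PU.1 knockdown, or 3 and 4 after PSPC1 and 2 and 5 after PU.1 knockdown in OCIAML5 on the scale of total counts. Their median was -0.02 after PSPC1 and -0.13 after PU.1 knockdown in OCIAML5, against 0.02 over all genes in both. On the scale of total counts it was 0.06 and 0.02, where the median of all genes had moved to 0.10 and 0.17, so the list stayed under all genes on both scales. TUFM, the elongation factor, fell in all 3 (-0.34 ± 0.044, -0.31 ± 0.043 and -0.50 ± 0.04). GFM1, which moves the ribosome along the mRNA, fell in MOLM13 (-0.31 ± 0.059) and after PU.1 knockdown (-0.26 ± 0.05), the latter not called on the scale of total counts (-0.10). OXA1L, which inserts new subunits into the inner membrane, fell in OCIAML5 after PSPC1 knockdown (-0.32 ± 0.048). Of 8 tested nuclear regulators of mitochondrial genes, 7 fell in each of the 3 knockdowns, and PPARGC1B, a coactivator of mitochondrial gene programmes, fell by 0.76 in MOLM13 and 0.97 after PU.1 knockdown. Its relative PPRC1 fell after PSPC1 knockdown in MOLM13 (-0.75 ± 0.065) and in OCIAML5 (-0.62 ± 0.062), and GABPA, a transcription factor of respiratory chain genes, fell in OCIAML5 after PSPC1 knockdown (-0.66 ± 0.069). YY1, a transcription factor, fell after PU.1 knockdown (-0.39 ± 0.042, or -0.24 on the scale of total counts).

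The nuclear subunits of the respiratory complexes were mostly lower after PU.1 knockdown and went both ways after PSPC1 knockdown, a difference that was not tested. After PU.1 knockdown 25 of 37 complex I subunits fell and 2 rose (median -0.34), 7 of 9 complex III subunits fell (median -0.41), all 11 of complex IV fell (median -0.61) and 13 of 16 of complex V fell (median -0.43). On the scale of total counts 20, 7, 11 and 10 of them were called lower and 6, 2, 0 and 2 higher, beside the 23.7% and 39.0% of all genes. COX5A, a complex IV subunit, was at 126 and 134 CPM after knockdown and 203 and 199 CPM in control libraries (-0.63 ± 0.046, adjusted p = 1.2e-19), and ATP5F1B, the catalytic beta subunit of complex V, at 697 and 733 CPM after knockdown and 1095 and 1085 CPM in control libraries (-0.61 ± 0.037, adjusted p = 1.3e-23). In MOLM13 6 complex I subunits rose and 15 fell (median -0.15), and in OCIAML5 11 rose and 8 fell (median 0.07). Complex IV had 1 higher and 4 lower in MOLM13 and 3 higher and 4 lower in OCIAML5, and complex V had 3 and 5 in MOLM13 (5 and 5 on the scale of total counts, where 57.5% of all genes were called, 29.8% higher and 27.7% lower) and 3 and 2 in OCIAML5. Complex III had 2 higher and 5 lower in MOLM13 and 3 of each in OCIAML5. In OCIAML5 the scale of total counts gave 15 higher and 7 lower for complex I, 5 and 2 for complex IV and 6 and 0 for complex V, beside 31.6% of all genes higher and 25.4% lower. On the TMM scale, without control replicate 2 complex IV had 5 higher and 1 lower. NDUFV1, a catalytic subunit of complex I, fell in all 3 (-0.59 ± 0.054, -0.59 ± 0.052 and -0.77 ± 0.046). Of other complex I subunits, NDUFV3 rose in MOLM13 (0.79 ± 0.071), NDUFA10 fell in OCIAML5 after PSPC1 knockdown (-0.52 ± 0.062) and NDUFA6 fell after PU.1 knockdown (-1.02 ± 0.066). In complex III, UQCRB rose after PSPC1 knockdown in MOLM13 (0.46 ± 0.045) and in OCIAML5 (0.58 ± 0.048), where UQCR10 rose too (1.41 ± 0.17). CYC1, the cytochrome c1 subunit, fell in MOLM13 (-0.29 ± 0.046) and after PU.1 knockdown (-0.80 ± 0.043), and UQCRC1, a core subunit, fell after PU.1 knockdown (-0.77 ± 0.046). In complex IV, COX7B (-0.59 ± 0.064) and NDUFA4 (-0.47 ± 0.078) fell in MOLM13, and COX5B fell after PU.1 knockdown (-0.74 ± 0.054). COX7C (0.39 ± 0.055) and COX7A2 (0.41 ± 0.07, or 0.25 without control replicate 1) rose in OCIAML5 after PSPC1 knockdown. In complex V, ATP5F1B (-0.34 ± 0.042) and ATP5PB (-0.33 ± 0.049) fell in MOLM13, while ATP5IF1, an inhibitor of the enzyme, rose in OCIAML5 after PSPC1 knockdown (0.54 ± 0.07). ATP5MC3, which encodes the subunit of the rotor ring, rose in OCIAML5 after PSPC1 knockdown (0.30 ± 0.051) and fell after PU.1 knockdown (-0.76 ± 0.044). These lists were described by their counts, beside the 27.5% to 30.9% of all genes called in 1 direction in the same 3 comparisons on the TMM scale.

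**Figure D5:**
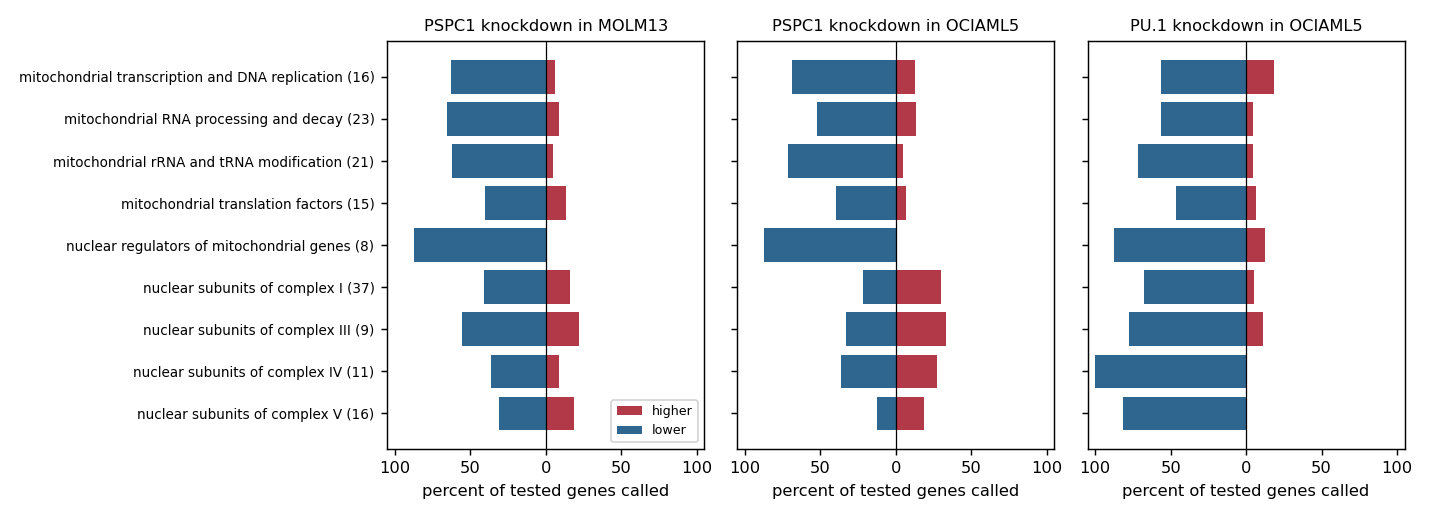
Percent of the tested genes of each nuclear list called higher (right of 0) and lower (left of 0) after the 3 knockdowns, with the number of tested genes of each list in brackets. Lists for transcription, RNA processing and modification lie mostly to the left in all 3 panels, and the subunits of complexes I, III, IV and V lie mostly to the left after PU.1 knockdown.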

How the data were processed

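The authors deposited 2 tables of raw gene counts, 1 for each experiment, with 60648 gene rows and a column for each of the 12 libraries. Per the submitters' processing notes, reads were handled with HTSeq 2.0.2, STAR 2.7.10a, DESeq2 1.36.0 and Trim Galore 0.6.7 on build GRCh38. The sources used here do not give the annotation release, the strand setting or the treatment of reads with several matches or in overlapping genes. A mitochondrial RNA whose reads also match a nuclear copy can be counted low or high under such settings.

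The members and gene lists were chosen with earlier results of these data known. Groups came from the sample titles. Counts were tested with edgeR 4.0.16 in R 4.3.3: genes passing filterByExpr, TMM scaling, quasi-likelihood fit, and Benjamini-Hochberg adjustment over all genes tested, with a threshold of 0.05. The PSPC1 table was fitted as 4 groups (16457 genes, 4 residual degrees of freedom) and the PU.1 table as 2 groups (16861 genes, 2 residual degrees of freedom). The 8 OCIAML5 libraries were joined for the comparison of the 2 knockdowns (17159 genes). The SE beside a log2 fold change was its absolute value divided by the square root of the test's F statistic. CPM were scaled by TMM within a table. A second scale used the summed counts of the 13 mitochondrial mRNAs as library size and was added after seeing the data. Shares are percentages of all gene counts, and their Wilson 95% intervals and the limits from 3 counts cover counting error only, since reads without molecular identifiers are not independent molecules.

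All 13 mRNAs and both rRNAs were to be named, tRNAs from a group mean of 5 CPM or when called in all 3 knockdowns, nuclear copies from 20 CPM, and of each list the 2 genes with the smallest adjusted p in each knockdown. MT-TC and MT-TE fall outside this rule and were named after their values were seen. Sequences, coordinates and overlaps were read from the GENCODE v29 transcripts and annotation of GRCh38 with Biopython 1.88. Libraries held 15372383 to 39716519 counts. In data simulated from these libraries, the PSPC1 test in MOLM13 (16457 genes) recovered 53% of 100 genes changed by 0.3 on the log2 scale and 99% of 100 changed by 1. The test in OCIAML5 recovered 48% and 98%, and the PU.1 test (16861 genes) 71% and 100%. The test of the difference between lines recovered 29% and 91%, with 6.98% of its calls false. That between the knockdowns recovered 30% and 98%, with 9.86% of its calls false. Only these genes were changed in the simulation, whereas 30.5% to 60.4% of all genes were called in the data. Its rates may therefore not carry over. Alternatives were DESeq2 1.42.0, other scalings and filters, a replicate block, a threshold of 0.01 and leaving out each library; those of the gene lists were chosen after seeing the data.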

Additional observations from a re-analysis of the deposited data

Results flagged for a closer look

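The effect of PSPC1 knockdown differed between MOLM13 and OCIAML5 for 6 of 17 members tested, a part close to the 30.5% of all genes. The test was the interaction term of edgeR's quasi-likelihood test, taken as MOLM13 minus OCIAML5. The difference was 0.61 for MT-ND3, 0.61 for MT-RNR1, 0.44 for MT-ND2, 0.42 for MT-CYB, 0.21 for MT-RNR2 and -0.25 for MT-TP on the log2 scale. MT-ND3, MT-RNR1 and MT-ND2 rose in MOLM13 and fell in OCIAML5. MT-RNR2 and MT-TP rose in both lines, and MT-CYB rose in MOLM13 and was not called in OCIAML5.

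Within OCIAML5 the effects of PU.1 and PSPC1 knockdown, taken as PU.1 minus PSPC1, differed for 12 of 18 members tested, against 45.6% of all genes. For the tRNA and the rRNAs the difference was -0.80 for MT-TP, -0.43 for MT-RNR1 and -0.37 for MT-RNR2. For complex I it was -0.48 for MT-ND5, -0.43 for MT-ND6, -0.33 for MT-ND4, -0.32 for MT-ND4L and -0.25 for MT-ND1. For complex IV it was -0.57 for MT-CO3, -0.32 for MT-CO1 and -0.27 for MT-CO2, and for complex V -0.31 for MT-ATP6. Relative to the mitochondrial mRNA total, 2 members were called, MT-ND2 at 0.33 and MT-TP at -0.46, against 40.4% of all genes, and without 1 library at a time the number lay between 0 and 5.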

How the results depend on the processing

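With DESeq2, 91 of 104 gene results stayed on their side of the threshold and 13 lost their call. Leaving out 1 library kept 995, ended 56 calls, added 57 and reversed 4. Such fits leave 1 library in a group, which is assumed to vary like the others. Members called for the difference between lines numbered 10 without a low-count filter and 5 to 13 with 1 library left out. Relative to the mitochondrial mRNA total, leaving out 1 library gave 0 to 1 members for PSPC1 in MOLM13, 5 to 12 for PSPC1 in OCIAML5, 1 to 10 for PU.1, 2 to 9 between lines and 0 to 5 between knockdowns. The share difference in MOLM13 was 2.53 percentage points over nuclear gene counts. With 1 library left out it ranged from -0.0101 to 0.701 for PU.1 and from -0.954 to 0.202 between lines. With total counts as the scale, PU.1 values turned to 0.0070 for MT-ATP8, 0.12 for MT-CO2, 0.031 for MT-ND4, 0.089 for MT-ND5, 0.14 for MT-ND6 and 0.0071 for MT-RNR2. With 1 library left out, MT-ATP6 ranged from -0.12 to 0.11 after PSPC1 knockdown in OCIAML5, and between lines MT-CO2 from -0.11 to 0.088, MT-ND4 from -0.19 to 0.14 and MT-ND4L from -0.15 to 0.13. Of 86 changes of sign, 76 involved no call on either side. The cause of these changes was not tested.

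Replicates with the same number did not deviate together (correlations -0.035, -0.016 and -0.195 for the PSPC1 pairs in MOLM13 and OCIAML5 and the PU.1 pair). The replicate block changed no member's call on the TMM scale. On the mitochondrial scale it left 1 member between knockdowns, MT-TP, and ended the call of MT-CO3 between control lines. The crossed pairing for PU.1, chosen after seeing the data, called 13 members. Depth limits the tRNAs: 3 counts in 1 library correspond to 0.0755 to 0.195 CPM.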
